A study of Mus musculus with 4 samples.

Results

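The genes that absorb dietary fat and pack it into chylomicrons were followed on microarrays of mouse duodenum and spinal cord. The 10 genes were chosen by name from this pathway: *Fabp1*, *Fabp2*, *Npc1l1*, *Mogat2*, *Dgat1*, *Mttp*, *Apob*, *Apoa1*, *Apoa4* and *Apoc3*. They were measured by 11 probes, out of 32575 genes or identifiers measured by 39418 probes. Total RNA came from male *IP6K2*-KO mice, also written *IP6K2*-/-, and their WT littermates at 20 weeks of age, and each combination of genotype and tissue was hybridized once, giving 4 arrays. All mice were raised on CE-2, a standard diet, changed to the purified diet iVid-neo for the last 1 week of feeding and finally kept without food for 48 h, so no fed animal is in the comparison. *IP6K2*-/- mice lack an exon that encodes the kinase domain of inositol hexakisphosphate kinase 2, which makes the inositol pyrophosphate IP7. Every group is a single array, so differences have no replicate check, none was tested, and this number limits the precision of all values.

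An absorptive cell of the small intestine, the enterocyte, takes up fatty acids, monoacylglycerol and cholesterol from the lumen, and binding proteins carry the fatty acids inside the cell. Enzymes of the endoplasmic reticulum rebuild triacylglycerol, which is loaded onto apolipoprotein B and leaves the cell as a chylomicron, a lipoprotein particle coated with further apolipoproteins. The liver makes several of the same proteins for its own lipoproteins, whereas the spinal cord makes no chylomicrons.

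Start site sequences of 7 of the 10 genes were in the RefSeq table used here, in build GRCm38.p6, and the 250 bases before the start were read for each. The windows of *Fabp1*, *Fabp2* and *Apob*, which were at or near background in the spinal cord, are shown with that of *Mttp*, which was above background in both tissues. Capitals mark matches on either strand to CAAAG, the core of the motif bound by HNF4, to TATAAA, the TATA box, and to GTTAAT, which belongs to the motif of HNF1. The coordinates are chr6:71199629-71199878 on the plus strand for *Fabp1*, chr3:122894822-122895071 on the plus strand for *Fabp2*, chr12:7977427-7977676 on the plus strand for *Apob* and chr3:138143419-138143668 on the minus strand for *Mttp*.
Fabp1: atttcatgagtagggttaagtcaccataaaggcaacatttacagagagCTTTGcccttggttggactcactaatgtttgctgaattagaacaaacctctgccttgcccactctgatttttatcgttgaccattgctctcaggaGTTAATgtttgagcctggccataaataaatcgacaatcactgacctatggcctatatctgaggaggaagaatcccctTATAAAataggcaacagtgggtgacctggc
Fabp2: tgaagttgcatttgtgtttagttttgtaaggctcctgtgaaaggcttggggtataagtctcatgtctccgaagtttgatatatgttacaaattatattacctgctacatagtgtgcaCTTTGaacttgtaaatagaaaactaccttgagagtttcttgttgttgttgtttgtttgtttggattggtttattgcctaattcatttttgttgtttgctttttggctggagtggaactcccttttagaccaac
Apob: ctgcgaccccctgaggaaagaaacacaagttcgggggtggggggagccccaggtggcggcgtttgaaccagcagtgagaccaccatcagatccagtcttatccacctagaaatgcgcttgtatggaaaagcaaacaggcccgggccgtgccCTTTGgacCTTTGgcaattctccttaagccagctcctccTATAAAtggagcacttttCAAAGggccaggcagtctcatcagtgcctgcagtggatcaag
Mttp: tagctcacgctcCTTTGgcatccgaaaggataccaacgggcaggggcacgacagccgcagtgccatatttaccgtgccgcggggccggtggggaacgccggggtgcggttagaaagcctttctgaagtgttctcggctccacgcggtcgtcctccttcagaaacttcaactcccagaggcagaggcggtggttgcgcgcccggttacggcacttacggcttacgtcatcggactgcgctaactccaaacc

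CAAAG was found in 6 of the 7 windows and in 48.6% of all 32851 RefSeq windows of the same length. TATAAA was found in 2 of the 7 (*Fabp1* and *Apob*) against 12.4% of all windows, GTTAAT in 2 (*Fabp1* and *Npc1l1*) against 6.43%, and TGATAA, the motif of GATA factors, in none against 7.94%. *Apob* held 3 matches to CAAAG, at 99, 91 and 42 bases before the start. The *Mttp* window differed from the other windows shown in base composition, with 61.2% G and C and 25 CpG pairs, whereas *Fabp2* had 35.6% and 1 pair, *Fabp1* 42.8% and 2 pairs, and *Apob* 55.2% and 7 pairs. Of the windows not shown, *Apoa1* had 58% and 4 pairs, *Apoa4* 57.6% and 1, and *Npc1l1* 51.2% and 6. The medians over all windows were 52.4% and 6 pairs. A match describes the letters of the window and shows no binding.

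The arrays differed in brightness before scaling. Of each array's processed signals, the 75th percentile lay at 905 and 971 in the spinal cord (WT, then labelled *IP6K2*-/-) and at 68.0 and 323 in the duodenum, and 51.6% to 77.3% of probes were well above background, which is the scanner software's own call. Levels below are log2 of the processed signal minus that percentile, and each difference compares a probe only with the same probe on another array. Summed levels, bands of brightness and the brightest gene of a list do set different probes side by side. The *Ip6k2* probe was brighter in the KO-labelled than in the WT spinal cord, at 1320 against 452. No source used here says whether it lies in the deleted exon, so the probe does not bear out the label and cannot decide on it. In the duodenum it gave 139 and 572, a scaled difference of −0.21. KO-labelled stands throughout for the arrays that carry the label *IP6K2*-KO. Enterocyte markers stood well above background on both duodenum arrays for 12 of 12 genes, and neural markers on both spinal cord arrays for 10 of 10, as the tissue labels state.

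All 10 genes were higher in the duodenum than in the spinal cord, by at least 2-fold in either genotype. The median difference over the 10 was 12.95 in WT and 12.06 in KO-labelled mice on the log2 scale, against 0.63 and 0.30 for all genes above background on both arrays. Of all genes above background on at least 1 array, 30.2% were at least 2-fold higher in the duodenum in WT and 30.3% in KO-labelled mice. At least 2-fold lower were 23.0% and 25.4%. The differences ran from 6.04 for *Dgat1* to 17.42 for *Fabp2* in WT, and from 5.42 to 16.39 for the same genes in KO-labelled mice. Where a probe was not well above background in the spinal cord, its difference is a lower bound, taken against the higher of its own level and the lowest level that was above background on that array. This held for 4 genes in WT and for 5 in KO-labelled mice. Across the other scalings every gene kept its direction, but the size moved: in WT, *Dgat1* ranged from 1.00 to 6.26 and *Fabp2* from 11.35 to 17.64. In RNA of a whole organ, fewer cells of a type and less RNA per cell cannot be told apart.

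**Figure D1:**
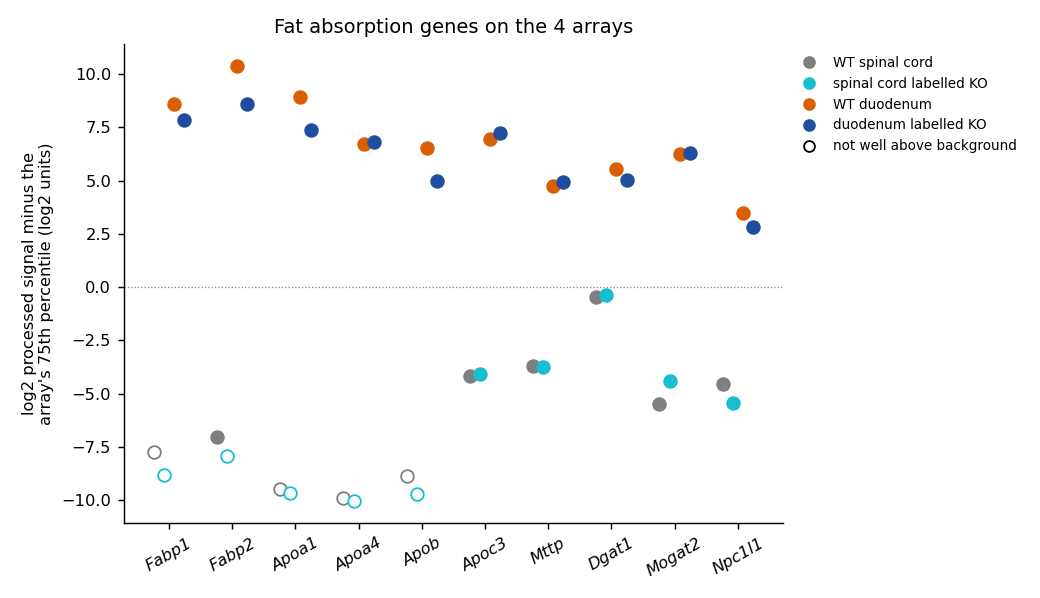
Level of each gene's probe on each of the 4 arrays, in log2 units over the array's 75th percentile (vertical axis, 0 is the percentile); open circles are probes not well above background. The duodenum points (orange, WT; blue, KO-labelled) lie at 2.84 or above and the spinal cord points (grey, WT; cyan, KO-labelled) at −0.38 or below, with *Dgat1* the gene whose tissues lie closest.

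The genes of uptake and transport inside the cell were read first. *Fabp1* and *Fabp2* encode the liver-type and the intestinal fatty acid binding protein, and *Npc1l1* the sterol transporter of the brush border. *Fabp1* gave a processed signal of 4.18 on the WT and 2.13 on the KO-labelled spinal cord array, neither well above background, and of 26503 and 73324 in WT and KO-labelled duodenum. *Fabp2* gave 6.90, 3.95, 91061 and 122969 in the same order, with the KO-labelled spinal cord not well above background. *Npc1l1* gave 38.8, 22.7, 754 and 2310 and was above background on all 4 arrays. The unscaled signal of each was brighter on the KO-labelled than on the WT duodenum array, as was the 75th percentile.

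After scaling, *Fabp2* differed by −1.81 on the log2 scale between KO-labelled and WT duodenum and was thus 3.51-fold lower under this scaling, but by only −0.18 when the 4 arrays were normalized by quantiles. *Fabp1* differed by −0.78 and *Npc1l1* by −0.63, both under 2-fold. The technical SD of such a difference, from the probes spotted 10 times on each array that lay nearest in brightness, was 0.068 for *Fabp1* and *Fabp2* and 0.069 for *Npc1l1*. It measures spots of one array, with no account of the mice. *Dgat1*, at a mean duodenum level of 5.30 against 9.48 for *Fabp2*, had the same value of 0.068. The SD may therefore not hold at the brightness of *Fabp1* and *Fabp2*. Between tissues and under this scaling, *Fabp2* was higher in WT duodenum by 17.42 and *Npc1l1* by 8.01, and *Fabp1* by at least 16.27, or at least 78985-fold. Across all settings the *Fabp1* value ranged from 9.25 to 16.49.

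Resynthesis of triacylglycerol was represented by *Mogat2*, the monoacylglycerol acyltransferase that begins it in the enterocyte, and *Dgat1*, an acyltransferase that adds the last fatty acid. *Mogat2* gave signals of 20.2 and 46.5 in the spinal cord (WT, then KO-labelled) and of 5124 and 25453 in the duodenum. *Dgat1*, which many tissues express, gave 649, 747, 3206 and 10639. Both were above background on all 4 arrays. In the duodenum *Mogat2* differed by 0.07, which was no more than its technical SD of 0.068, and *Dgat1* by −0.52, both within 2-fold. *Dgat1* had the smallest difference between tissues of the 10 genes, 65.7-fold in WT and 42.8-fold in KO-labelled mice.

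Particle assembly was represented by *Apob*, the structural protein of the chylomicron, and *Mttp*, the transfer protein that loads it with lipid. *Mttp* gave signals of 68.7 and 72.9 in the spinal cord and of 1843 and 9773 in the duodenum. Its scaled difference was −0.02 for the spinal cord and 0.16 for the duodenum. The latter moved to 0.51 under quantile normalization within each tissue and to 0.75 under normexp background correction, both still within 2-fold.

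*Apob* was the only one of the 10 genes with 2 probes, and these disagreed on the direction in the duodenum. The brighter probe, which represents the gene here, gave 6223 on the WT and 10026 on the KO-labelled duodenum array, a scaled difference of −1.56 or 2.95-fold lower in KO-labelled duodenum. The dimmer probe gave 1574 and 10680, a scaled difference of 0.52 in the other direction. In the spinal cord the signals of both probes were 0.858 to 1.93, none well above background. When the arrays were normalized by quantiles, the probes still differed in sign, at −0.93 and 0.72. A mean of both probes gave −0.52. The direction for *Apob* therefore rests on the choice of probe.

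*Apoa1*, *Apoc3* and *Apoa4* encode apolipoproteins of the particle's surface and follow one another on chromosome 9 in RefSeq. Of the 3, *Apoc3*, whose protein slows the clearance of triacylglycerol from plasma, was above background in the spinal cord, with signals of 49.9 and 56.9, and it gave 8528 and 48875 in the duodenum. *Apoa1*, the main protein of high-density lipoprotein, gave 1.26 and 1.19 in the spinal cord, not above background, and 33289 and 53756 in the duodenum. *Apoa4*, which the intestine secretes on chylomicrons, gave 0.937 and 0.925 in the spinal cord, also not above background, and 7180 and 36283 in the duodenum. The neighbours did not move together in the duodenum: *Apoa1* differed by −1.56, or 2.94-fold lower on the KO-labelled array, whereas *Apoa4* differed by 0.09 and *Apoc3* by 0.27. *Apoa1* was spotted 10 times on each array, and the technical SD of its difference was 0.016.

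Over the 10 genes, 0 were at least 2-fold higher and 3 (*Fabp2*, *Apoa1* and *Apob*) at least 2-fold lower on the KO-labelled than on the WT duodenum array, and 7 lay within 2-fold. Of all 21428 genes above background on at least 1 array, 7.17% were at least 2-fold higher and 11.9% at least 2-fold lower. These 21428 include dim genes for which no difference is given. Among the 16810 genes above background on both arrays, 1238 were at least 2-fold higher and 2479 at least 2-fold lower. The median was −0.57 for the 10 genes and −0.11 for the 16810 genes above background on both arrays. The direction was mixed, since 6 of the 10 genes were below 0 and 4 (*Apoa4*, *Apoc3*, *Mttp* and *Mogat2*) slightly above it.

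Among genes above the 75th percentile, the difference in the duodenum fell with brightness. Below it the order was not kept, with a median of −0.20 for 3444 genes at −4 to −2 and 0.10 for 4504 genes at −2 to 0. Among 192 genes with a mean level of 8 to 12 over both duodenum arrays, which hold *Fabp1*, *Fabp2* and *Apoa1*, the median difference was −1.22, with quartiles at −1.77 and −0.89. *Fabp2* lay just below that range, *Apoa1* within it and *Fabp1* just above it. Among 643 genes at 6 to 8 the median was −0.59, with quartiles at −1.01 and −0.25, and *Apoa4*, *Apoc3* and *Mogat2* all lay above the upper one. Among 1273 genes at 4 to 6 the median was −0.34, with quartiles at −0.69 and 0.07. There the brighter *Apob* probe lay below the range, *Dgat1* within it and *Mttp* above it. *Npc1l1* lay just below the lower quartile, −0.60, of the 2577 genes at 2 to 4.

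**Figure D2:**
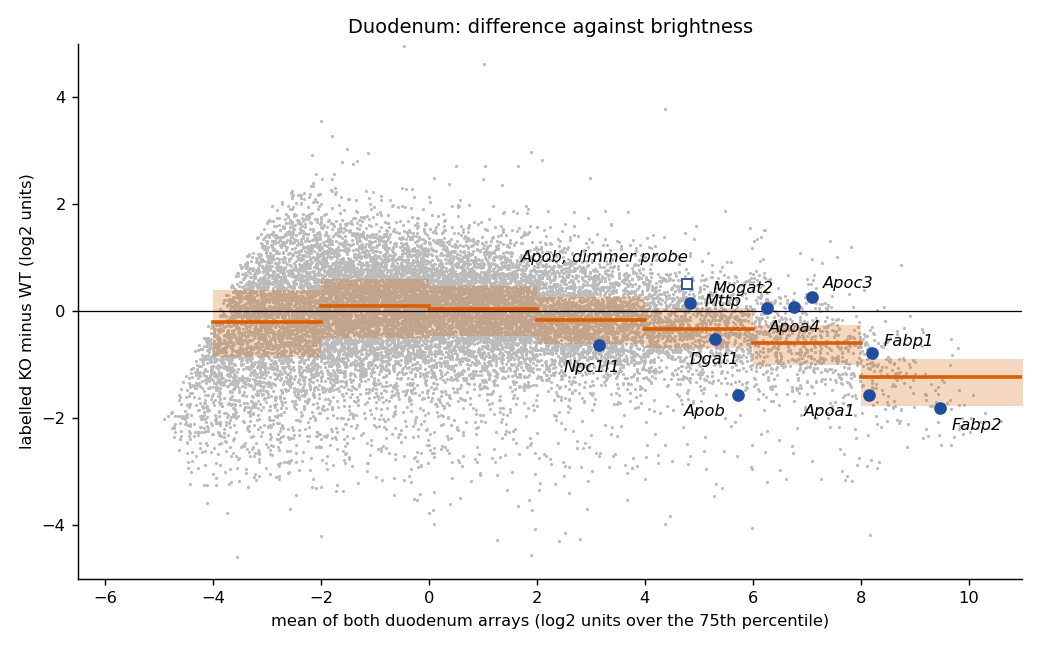
Difference between the KO-labelled and the WT duodenum array (vertical axis, log2 units) against the mean level of both arrays (horizontal axis, log2 units over the 75th percentile) for each gene above background on both (grey), with the band medians (orange lines), quartiles (orange areas) and the 10 genes (blue; open square, the dimmer *Apob* probe). The band median is −0.20 at levels of −4 to −2, rises to 0.10 at −2 to 0 and falls from there to −1.22 at 8 to 12, where *Fabp1*, *Fabp2* and *Apoa1* lie; a few genes beyond the vertical range are not drawn.

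Another scaling changed the calls in the duodenum. With the 4 arrays normalized by quantiles, which brings the band medians from 2 upwards to between 0.02 and 0.04, none of the 10 genes was 2-fold apart and their median was 0.086. *Fabp2* then differed by −0.18, *Apoa1* by −0.44 and *Apob* by −0.93, and *Fabp1* by 0.28 in the other direction. *Apoc3* became the highest, at 0.79, followed by *Apoa4* at 0.59, *Mogat2* at 0.46 and *Mttp* at 0.43. With the arrays scaled on their spiked-in control probes, the 3 genes called lower turned to the other side (*Fabp2* 1.19, *Apoa1* 1.45, *Apob* 1.44), while the median over all genes moved to 2.89. That scaling shifts every gene of an array alike. With *Apob* read from its brighter probe or the mean of its probes, *Apoc3* was the highest of the 10 genes, and *Fabp2* or *Apob* the lowest, under each of the 8 other settings and the one reported. Most of these settings could not change that order or repeat another. Median centring and spiked-in scaling add one amount to every difference, and the mean of probes changes only *Apob*. The authors' table nearly repeats quantile normalization of the 4 arrays, and the normexp settings nearly repeat each other in the duodenum. The dimmer *Apob* probe alone lay above *Apoc3* as reported (0.52 against 0.27) and under normexp (1.11 against 0.89). It lay below *Apoc3* under quantile normalization of the 4 arrays (0.72 against 0.79).

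**Figure D3:**
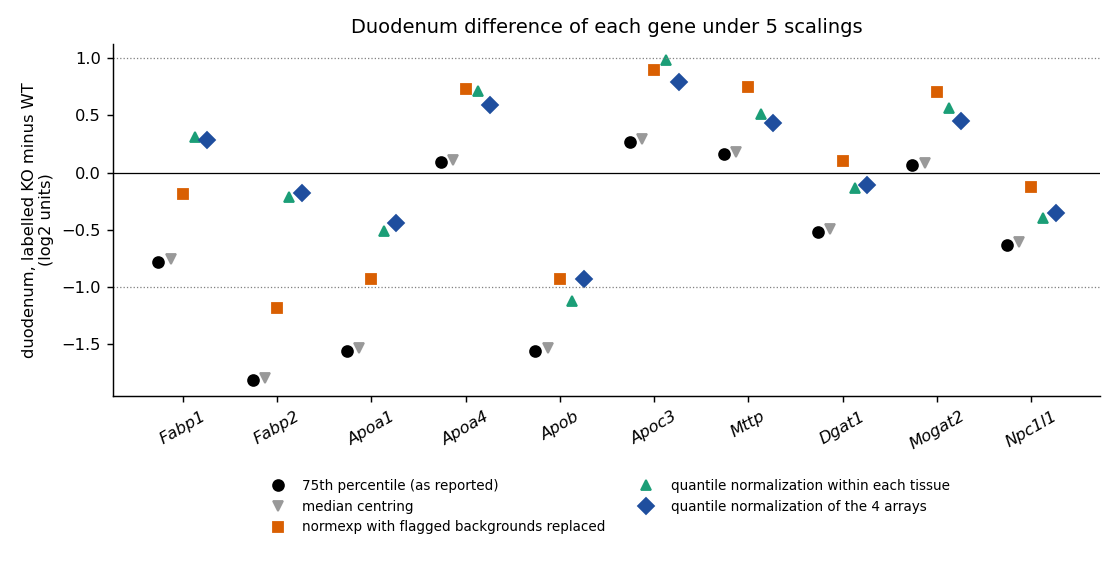
Difference between the KO-labelled and the WT duodenum array for each gene (vertical axis, log2 units; dotted lines mark 2-fold) under 5 scalings. Under the 75th percentile 3 genes lie below −1, and under quantile normalization of the 4 arrays none does; scaling on spiked-in control probes, which put all 10 genes above 1, is not drawn.

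In the spinal cord, 5 genes were above background on both arrays and *Fabp2* on the WT array alone, and 4 (*Fabp1*, *Apoa1*, *Apoa4* and *Apob*) on neither, so no difference is given for them. *Mogat2* was the only one at least 2-fold apart, 2.15-fold higher on the KO-labelled array, with signals of 20.2 and 46.5. *Npc1l1* differed by −0.88, *Dgat1* by 0.10, *Apoc3* by 0.09 and *Mttp* by −0.02, and *Fabp2* had a bound of −0.79 under this scaling, which became −0.57 under quantile normalization of the 4 arrays. Of all genes above background on at least 1 array, 2.28% were at least 2-fold higher and 0.865% at least 2-fold lower. The *Mogat2* call was made at a signal far below the percentile used for scaling. With normexp background correction in place of the processed signal its difference was −1.75, and 0.32 when flagged local backgrounds were first replaced. Under the same settings *Npc1l1* differed by −2.18 and −0.36, *Fabp2* by −2.44 and −0.13, and *Mttp* by −1.48 and −0.05.

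The other genes of fat handling were read from a list of 39, of which 38 were on the arrays and 36 had a value in the duodenum. None of the 36 was at least 2-fold apart there, and their median was −0.09. They were not matched to the 10 genes in brightness. The brightest of them in WT duodenum, *Dgat2*, stood at 7.56 there and at 6.59 in KO-labelled duodenum. None thus lay in the band of 8 to 12, with its median of −1.22, which holds *Fabp1*, *Fabp2* and *Apoa1*. By step, the median was −0.15 for 6 genes of uptake, 0.05 for 9 of lipid resynthesis, −0.03 for 10 of particle assembly and −0.01 for 3 of sterol export. For 8 transcription factors of the pathway it was −0.14. The genes nearest to 2-fold, picked out after their values were seen, were *Dgat2*, the other diacylglycerol acyltransferase, at −0.96, *P4hb*, a subunit of the lipid transfer complex with *Mttp*, at 0.93, and *Soat2*, which esterifies cholesterol, at 0.92. Under quantile normalization of the 4 arrays the list's median was 0.17 and *P4hb* was the only one past 2-fold. In the spinal cord 0 of 33 were higher and 2 lower, *Apom* at −1.03 and *Fabp6* with a bound of −1.35. Between tissues 30 of 36 were at least 2-fold higher in WT duodenum and 2 lower, and in KO-labelled mice 31 of 37 were higher and 2 lower, *Acsl3* and *Apoe* in either genotype.

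**Figure D4:**
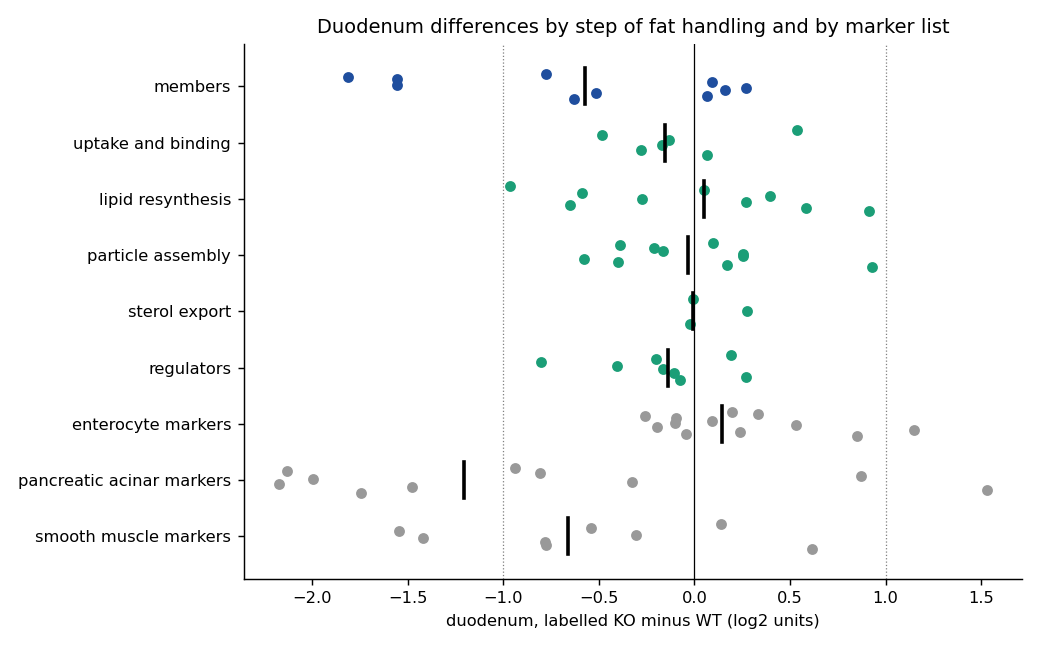
Duodenum difference (horizontal axis, log2 units, KO-labelled minus WT; dotted lines mark 2-fold) of each gene above background on both arrays, for the 10 genes (top row, blue), the other fat-handling genes by step (green) and marker genes of cell types (grey), with each row's median as a black bar. The top row has 3 genes below −1, the green rows have none past either line, and the pancreatic row has 5 below −1. The rows are not matched in brightness, with which the difference moved.

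Markers of the cell types that a duodenum sample can hold were read beside these results. The 12 enterocyte markers had a median difference of 0.14 (0.52 under quantile normalization of the 4 arrays), with 1 (*Slc5a1*, the glucose transporter) at least 2-fold higher and 0 lower, and their summed level was 785 times the 75th percentile in WT and 794 times in KO-labelled duodenum. *Vil1*, of the brush border, differed by 0.20, *Lct*, or lactase, by 0.33, and *Anpep*, an aminopeptidase and the brightest of the list, by 0.09. Smooth muscle markers had a median of −0.66 (−0.31 under quantile normalization), with 2 of 8 (*Actg2* and *Des*) lower and 0 higher, *Myh11* at 0.14, *Acta2* at −0.54, *Tagln* at −0.30 and a summed level of 132 and 75.03.

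Pancreatic acinar markers were far above background on both duodenum arrays, in 10 of 10 genes. They include *Pnlip*, *Clps* and *Cel*, which encode pancreatic lipase, its cofactor colipase and carboxyl ester lipase and digest fat in the lumen. Their median difference was −1.21, with 5 lower (*Clps*, *Cpa1*, *Ctrb1*, *Prss2* and *Cpb1*) and 1 higher (*Rnase1*), and their summed level was 12856 in WT and 4844 in KO-labelled duodenum. *Pnlip* differed by −0.94, *Clps* by −2.13 and *Ctrb1*, a chymotrypsinogen, by −2.17. Under quantile normalization of the 4 arrays the median of this list was 0.31, with 3 higher and 0 lower. Globin and other blood genes were lower in KO-labelled duodenum in 5 of 5 genes (*Hba-a1* −4.05, *Hba-a2* −4.19), with a median of −3.77, and of −2.60 under quantile normalization. Their summed level was 1532 in WT and 88.4 in KO-labelled duodenum, and in the spinal cord 227 and 350. The part of smooth muscle, pancreatic and blood RNA in the differences of the fat absorption genes was not tested.

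Hepatocyte markers bear on the genes that the liver shares with the intestine. *Alb*, the albumin gene, was not above background in WT duodenum and had a signal of 6.19 in KO-labelled duodenum, and *Fgb*, for fibrinogen, was above background on none of the 4 arrays. The summed level of the 10 hepatocyte markers was 4.11 in WT and 6.71 in KO-labelled duodenum, with 6 and 8 of them above background, and *Ttr*, the brightest there, differed by 0.74. Neural markers, at 351 and 334 in the spinal cord, summed to 21.4 and 15.6 in the duodenum, where 5 and 9 of 10 were above background. *Snap25*, of the synapse, differed there by −0.78, and *Nefl*, of neurofilaments, was not above background in WT duodenum.

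The 5 genes whose levels over the 4 arrays ran closest to the median of the 10, each centred on its own mean, were *Kdf1*, *Tmprss15*, *Cdx1*, *Aqp12* and *Pnlip*. Their root mean square distance over the 4 arrays was 0.096 to 0.145 log2 units, out of 12421 genes compared. The 10 genes themselves lay farther from that median, from 0.96 for *Apob* to 3.77 for *Dgat1*. Nearness to the median is therefore not nearness to any of the 10. On the spinal cord arrays all 5 nearest genes but *Pnlip* lay below the lowest level that was well above background (−7.66 in WT and −7.82 KO-labelled). Several of the 10 did too, so these distances and this order rest in part on values not above background. *Tmprss15* encodes enteropeptidase of the duodenal brush border and *Cdx1* an intestinal transcription factor, whereas *Pnlip* is one of the pancreatic acinar markers above.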

How the data were processed

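Total RNA (0.1 ug, with an RNA integrity number above 7.0 per the labels) was labelled with Cy3 and hybridized to 1-colour Agilent arrays. The authors deposited scanner output of Agilent Feature Extraction 11.5.1.1, in which the processed signal gives the intensity with background subtracted and spatial trends removed, together with a table of log2 values that was found to be the same intensities, floored at 1 and normalized by quantiles over the 4 arrays. Here control spots and spots flagged as outliers (89 to 133 of 43020 spots per array) were left out, spots of a probe were averaged on the log2 scale, and the array's 75th percentile was subtracted. No spot was saturated. Probes were named through RefSeq accessions: 25868 of 26391 matched. A gene was represented by its brightest probe over the 4 arrays. A call is a 2-fold difference with at least 1 array well above background. The technical SD came from 399 probes spotted 10 times, using the 50 nearest in brightness. Python 3.11.15, numpy 2.4.6, pandas 2.3.3, R 4.3.3 and limma 3.58.1 (normexp, offset 50) were used, and the calculation was tested on simulated data. The named genes are all 10 of the pathway, fat-handling genes at least 2-fold apart in the duodenum (none met this, so those named, and marker genes outside the rule, were chosen after their values were seen), the first 2 and the brightest of each marker list, *Ip6k2*, and the 5 nearest profiles. The genes, lists and rules were chosen with earlier results of these data known. The alternatives tried are given at the end.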

Additional observations from a re-analysis of the deposited data

Results flagged for a closer look

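*Dgat1* was lower on the KO-labelled than on the WT array in the duodenum, by 0.52 on the log2 scale, and higher on the KO-labelled array in the spinal cord, at 0.10. The gap between these differences was −0.62, from 1 array per genotype and tissue. It drew attention because the tissues moved in opposite directions, and this difference between tissues was not tested. The signs did not hold across settings: for duodenum, then spinal cord, *Dgat1* differed by 0.10 and 0.0063 under normexp, by 2.49 and −0.07 under spiked-in scaling, and by −0.11 and 0.10 under 4-array quantile normalization.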

How the results depend on the processing

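No paired analysis was possible because there was 1 array per genotype and tissue, and for the same reason no replicate could be left out. Of 288 values of single genes under other settings, 16 changed sign. Of these, 4 belonged to differences that were past 2-fold as reported: *Fabp2* (1.19), *Apoa1* (1.45) and *Apob* (1.44) in the duodenum under spiked-in control scaling, which adds one amount to the difference of every gene, and *Mogat2* in the spinal cord (−1.75) under normexp, whose cause was not tested. The other 12 belonged to differences within 2-fold, among them *Fabp1* and *Dgat1* in the duodenum and *Apoc3* in the spinal cord. The median over the 10 genes in the duodenum, KO-labelled minus WT, was 0.086 under quantile normalization of all arrays, 0.090 within each tissue, −0.011 under normexp, −0.012 with replaced backgrounds, 2.43 under spiked-in scaling and 0.10 in the authors' table. The count of genes lower there, 3 as reported, was 0 in the authors' table, under 4-array quantile normalization and under spiked-in scaling (10 higher), 1 under quantile normalization within each tissue and under both normexp settings, and 5 at 1.5-fold. In the spinal cord the median was −1.71 under normexp and −0.13 under spiked-in scaling, and *Mogat2* was no longer called higher (0 higher) under these and under normexp with replaced backgrounds. Lower there were 5 genes under normexp, 1 under spiked-in scaling, 1 without a filter on dim probes and 2 at 1.5-fold. The tissue difference kept its direction for all 10 genes under every scaling. Its median in WT, then in KO-labelled mice, was 13.17 and 12.33 under median centring, 11.81 and 11.41 in the authors' table as under 4-array quantile normalization, 10.05 and 9.71 within each tissue, 7.35 and 9.71 under normexp, 9.39 and 9.71 with replaced backgrounds, 7.91 and 10.19 under spiked-in scaling, and 13.08 and 12.79 as the mean of a gene's probes. With both arrays required above background, 6 and 5 genes kept a tissue call. Quantile normalization within each tissue puts the tissues on no common scale, so it cannot check the tissue difference. Over all genes it left 2178 higher and 16703 lower in WT duodenum, against 7617 and 5806 as reported. Normexp called 86 genes higher and 9653 lower in the spinal cord, against 576 and 218. With flagged backgrounds replaced it called 173 higher and 19 lower. In the spinal cord 4 genes were above background on neither array, so no genotype difference is reported for them there.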
